A study of Sus scrofa with 6 samples.

Results

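The proteasome genes described here are the rows of the expression table whose pig Ensembl identifier carries a symbol made of PSMA, PSMB, PSMC, PSMD, PSME or PSMG and a number. Of the 20731 genes in the table, 40 met this rule, and 38 of those 40 had a mean of at least 1 FPKM over all libraries and were tested (FPKM divides the fragments of a gene by its length and by the size of the library). RNA came from immature porcine Sertoli cells, which nurse the germ cells of the testis. The treated cells, labelled MT (3 libraries), had received 10 nM melatonin for 36 h, and the other 3 libraries are labelled Control, with no solvent, dose or culture time stated. The labels give no genotype, breed or age and do not say whether the replicates are separate cultures or animals, so each p-value reflects library-to-library spread alone, possibly technical.

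The proteasome is the protease that breaks down most ubiquitin-tagged proteins of the cytosol and nucleus. Its core is a barrel of alpha subunits, which form the gated end rings, and beta subunits, of which PSMB5, PSMB6 and PSMB7 cut peptide bonds. A regulatory cap on the end of the barrel binds ubiquitin chains, removes them and threads the unfolded protein inward. In cells that respond to interferon, PSMB8, PSMB9 and PSMB10 take the places of PSMB5, PSMB6 and PSMB7, and the ring-shaped activator of PSME1 and PSME2 can sit on the barrel instead of the cap, which together is called the immunoproteasome. The PSMG proteins and a few PSMD proteins guide assembly and are not part of the finished particle.

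Of 47 pig symbols of this form in RefSeq, 40 had a row, and PSMA6, PSMB5, PSMB6, PSMB11, PSMG1, PSMG2 and PSMG4 were not analysed here. The 40 genes comprised 7 alpha subunits, 5 beta subunits, 9 subunits of the base of the cap, 8 of its lid, 5 immunoproteasome genes, 2 further activators and 4 assembly factors. The tested genes were placed at 4.11 FPKM (PSME2) to 192.8 FPKM (PSMB4), and 36 of 38 lay above the median level of the 10950 tested genes. The genes outside the filter were PSME1, at 0.19 to 0.42 FPKM, and PSMA8, an alpha subunit of germ cells in the mouse, which was listed at 0 in 5 libraries and at 0.195 FPKM in Control 1. Summed over all 40 genes, the level was 1874, 1911 and 2080 FPKM in Control 1 to 3, with 1886, 1840 and 1841 FPKM in MT 1 to 3. Control 3 held the highest sum, and the other 5 libraries lay close together with the groups overlapping. By class, the base of the cap summed to 356.3 to 367.1 FPKM in Control and 335.4 to 345.7 in MT. The lid summed to 434.4 to 470.8 FPKM in Control and 417.8 to 427.6 in MT. Neither of these sums overlapped between the groups, while the sums of every other class did. Among single tested genes, 11.2% had no overlap in either direction. Without Control 3 the MT mean was lower on the log2 scale in only 3 of the 9 base genes, and in 6 of the 8 lid genes. No test was run on the sums.

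Library totals, recovered from the step sizes of low FPKM values, were 19579279 to 21500665 reads. Control 3 stood apart: on the component with 68.2% of the variance over tested genes it lay at 40.4, against -22.0 to 7.52 for the other 5 libraries, and the mitochondrial mRNA share of its reads was 2.72%, with 4.35% to 5.56% elsewhere. Of 15 Sertoli markers 11 had a row and 6 reached 1 FPKM, with CLU at 3241 ± 288.5 FPKM in Control (SD, n = 3), AMH at 13.4 ± 2.16 and WT1 at 10.6 ± 0.54, while INHA and KITLG were below 0.1 FPKM. Summed markers of Leydig cells were 3.85 to 4.35 FPKM in Control and 3.74 to 4.87 in MT (3 of 6 names with a row), those of germ cells 0.67 to 1.35 and 1.02 to 1.25 (2 of 5), those of leukocytes 9.39 to 12.2 and 11.6 to 13.3 (4 of 5) and those of endothelium 0.16 to 0.31 and 0.15 to 0.32 (2 of 4). The 5 peritubular myoid markers summed to 160.3 to 264.8 FPKM in Control, the highest in Control 3, and to 161.7 to 194.2 in MT. Nearly all of that sum was TAGLN, with ACTA2 at 0.13 ± 0.12 FPKM in Control. Of the leukocyte markers, CD68 was at 4.14, 3.175 and 3.87 FPKM in Control, with 5.30, 4.503 and 4.66 in the MT libraries, every MT library above every Control library (log2 0.30, unadjusted p 0.0508, adjusted p 1.0). CD14 was at 7.08 ± 1.09 and 7.44 ± 0.45 FPKM with overlap, CSF1R was below 0.1 FPKM, and CD163 was listed at 0 in 5 of 6 libraries. The part of these markers and of the mitochondrial share in the results was not tested. In such bulk samples, a change in the make-up of the cells cannot be told apart from a change in the RNA of each cell.

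**Figure D1:**
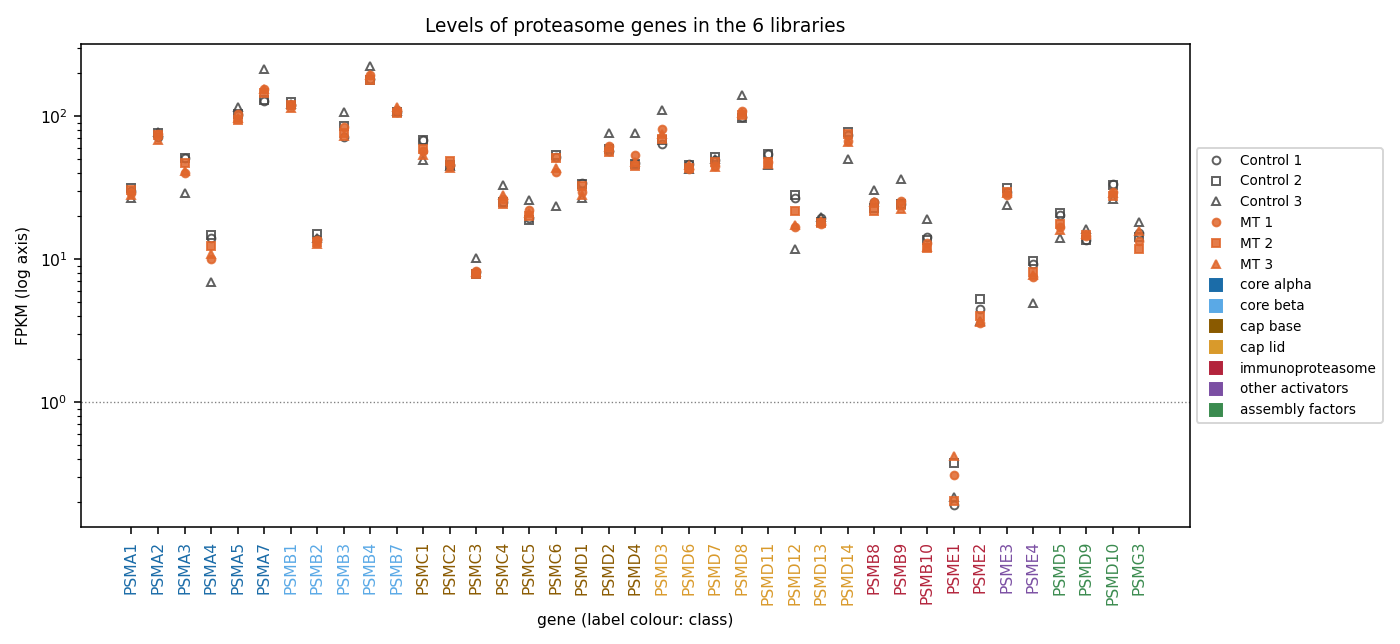
FPKM on a log axis for 39 of the 40 proteasome genes (PSMA8, at 0 in 5 libraries, is left out), with 1 point for each library and gene names coloured by class. The libraries of a gene lie close together beside the spread between genes, and PSME1 lies alone below the dotted line at 1 FPKM.

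Setting MT against Control addresses which proteasome transcripts differ in Sertoli cells kept with melatonin. Over all 6 libraries none of the 38 tested genes changed in limma, where 0 of 10950 genes passed an adjusted p of 0.05 (0%), and the smallest adjusted p among the proteasome genes was 0.9998. None had an unadjusted p under 0.05 either, against 517 of all tested genes (4.72%), and voom on the recovered reads of all 6 libraries called 0 genes as well. The median log2 difference of MT minus Control, on the log2(FPKM + 1) scale, was -0.07 over the proteasome genes and 0.02 over all tested genes. Its sign was negative for 30 of the 38 genes, against 44% of all tested genes. The differences spanned -0.31 (PSMB10) to 0.16 (PSMC6). All 38 genes had a 95% interval inside a 2-fold change of FPKM + 1 in either direction, and for 32 it was inside a 1.5-fold change. In FPKM itself the intervals of low genes such as PSME2 are wider. The 3 MT values lay below the 3 Control values in 3 genes, PSMB10, PSMB2 and PSMD7, against 4.99% of all tested genes, and above them in 0 genes, against 6.24%.

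Without Control 3, PSMD12 and PSMC1 fell in MT, 2 of 38 genes where 6.62% of all tested genes fell (725), and 0 proteasome genes rose where 4.28% of all tested genes rose (469). Quantile normalization of these 5 libraries split the calls over all genes into 663 higher (6.05%) and 670 lower (6.12%), with 0 and 2 proteasome genes. In limma's voom on the recovered reads of these 5 libraries PSMA7 rose (1 gene, where 8.29% of all tested genes rose), PSMA4, PSMC1, PSMD12, PSMD5 and PSME4 fell (5 genes, against 13.3%), and 21.6% of all tested genes changed. In another fit limma weighted all 6 libraries by weights estimated from the data. These were 1.3, 4.76 and 0.0523 for Control 1 to 3 and 4.96, 0.514 and 1.22 for MT 1 to 3, so Control 2 and MT 1 counted most. There 4 proteasome genes rose (28.1% of all tested genes) and 13 fell (29.5%), where 57.6% of all tested genes changed. Counted in either direction, the share of proteasome genes called was no larger than the share of all tested genes in any of these fits. In the limma comparison without Control 3, 11 of the 38 genes had an unadjusted p under 0.05, 10 of them lower in MT, against 36.2% of all tested genes in either direction. How that 36.2% divided by direction was not counted, so the split among the proteasome genes has no background beside it. The 3 MT values lay below both other Control libraries in 15 genes (30.3% of all tested genes) and above them in 5 (25.9%), where 56.2% of all tested genes did either. The log2 difference was negative in 25 of the 38 genes, against 50.6% of all tested genes. Its median was then -0.07 over the proteasome genes and -0.004 over all tested genes, and the median size of the difference, without its sign, was 0.11 and 0.18. In these 5 libraries all 38 intervals lay inside a 2-fold change of FPKM + 1 and 37 inside a 1.5-fold change, PSMD12 being the exception on that scale.

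**Figure D2:**
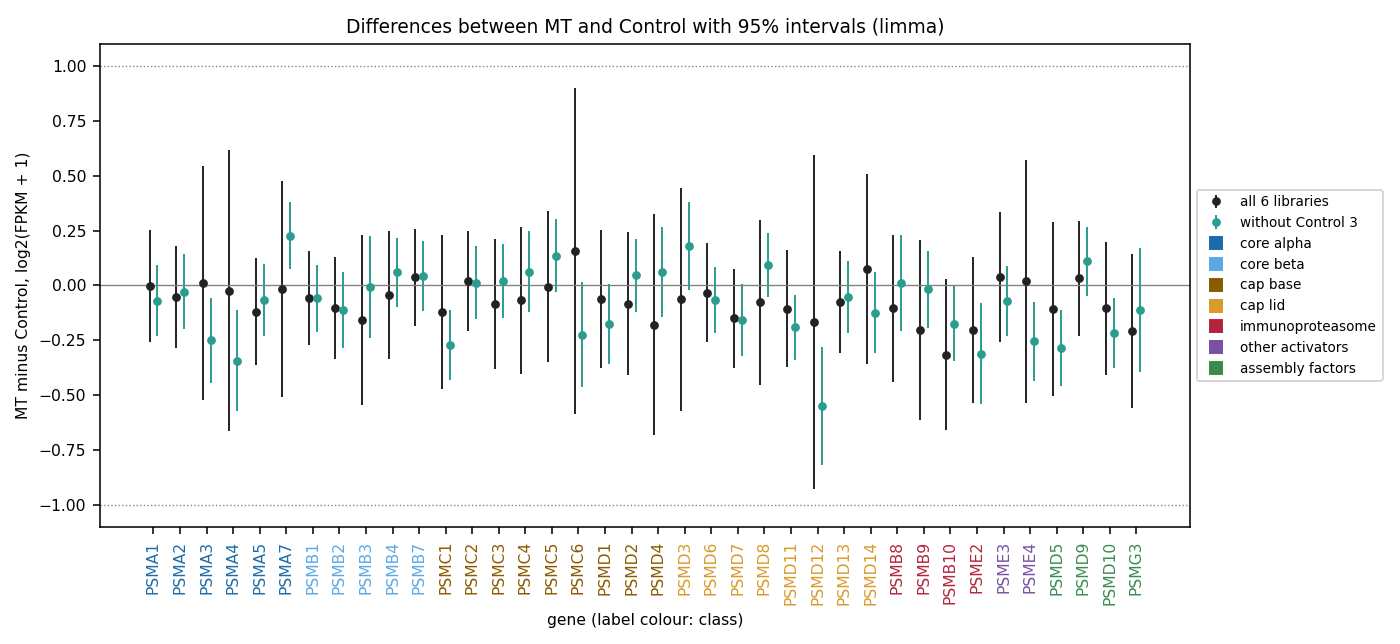
MT minus Control on the log2(FPKM + 1) scale for the 38 tested genes, with 95% intervals from limma over all 6 libraries (black) and without Control 3 (green). All intervals lie between the dotted lines at a 2-fold change of FPKM + 1, and the widest belong to PSMD12 and PSMC6.

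In the alpha rings, 5 of 6 tested genes had a negative log2 difference and none passed, with a class median of -0.02 over 6 libraries and -0.07 without Control 3. PSMA7, at the highest level of the class, read 128.4, 130.5 and 214.7 FPKM in Control 1 to 3, with 154.6, 144.8 and 155.8 in MT 1 to 3. Control 3 was the highest of all and the other 2 Control libraries the lowest, so the log2 difference was -0.01 (SE 0.21) with all libraries and 0.23 (SE 0.06, adjusted p 0.060) without Control 3. PSMA4, at the lowest level, read 14.0, 14.7 and 6.91 FPKM in Control, with 10.04, 12.45 and 10.9 in the MT libraries, the reverse arrangement, with log2 differences of -0.02 (SE 0.27) and -0.34 (SE 0.10, adjusted p 0.060). PSMA3 followed PSMA4, at 51.0, 50.8 and 29.2 FPKM in Control, with 40.3, 46.8 and 41.1 in the MT libraries. PSMA5, with the smallest p of the class over 6 libraries, stood at 107.1 ± 7.36 FPKM in Control, with 98.4 ± 5.03 in the MT libraries (SD, n = 3), overlapping groups. PSMA1 at 29.4 ± 2.47 and 29.3 ± 1.21 FPKM and PSMA2 at 75.2 ± 2.99 and 72.5 ± 3.72 FPKM were nearly level between the groups. PSMA7 lies on chromosome 17 from 61566373 to 61571516 and PSMA4 on chromosome 7 from 47440576 to 47448599 (Sscrofa11.1, positions of the RefSeq gene of that symbol here and below).

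Among the beta subunits Control 3 lay outside the range of the other 5 libraries in 2 of 5 beta genes, PSMB3 and PSMB4, against 6 of 6 alpha genes, and in 74.1% of all tested genes. PSMB7, the trypsin-like protease of the core, read 107.7, 107.6 and 109.0 FPKM in Control, with 110.9, 106.0 and 116.3 in the MT libraries, a log2 difference of 0.04 (95% interval -0.18 to 0.26). PSMB4, a structural subunit with the highest level of all proteasome genes, stood at 196.2 ± 25.35 and 189.4 ± 8.47 FPKM, and PSMB1 at 122.6 ± 3.12 and 117.8 ± 3.08 (SD, n = 3). PSMB2, at the lowest level of the class and with its smallest p, read 13.9, 14.95 and 14.1 FPKM in Control, with 13.7, 13.3 and 12.8 in the MT libraries. Its groups did not overlap, yet the log2 difference was only -0.10 (SE 0.10, unadjusted p 0.329). The class median was -0.06 with all libraries and -0.01 without Control 3.

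The base of the cap holds the 6 ATPases PSMC1 to PSMC6, which unfold the substrate, with the scaffold proteins PSMD1 and PSMD2 and the ubiquitin receptor PSMD4. Of its 9 genes, 7 had a negative log2 difference with all libraries and 3 without Control 3, and the class median moved from -0.07 to 0.02. PSMC1 read 68.4, 68.3 and 49.8 FPKM in Control, with 57.25, 58.7 and 53.7 in the MT libraries, and fell without Control 3 by 0.27 on the log2 scale (SE 0.07, adjusted p 0.049). Its Control 3 value was below all 3 MT values, so the difference was -0.12 (SE 0.15) over 6 libraries. PSMC6, another ATPase, read 52.1, 53.45 and 23.45 FPKM in Control, with 41.0, 51.4 and 43.4 in the MT libraries, and its highest value was 2.28 times its lowest, the largest such ratio in the base. PSMD4 ran the other way, at 46.8, 46.0 and 77.0 FPKM in Control against 53.3, 44.5 and 48.0 in MT. It had the smallest p of the class over 6 libraries (-0.18, SE 0.21, unadjusted p 0.428). PSMD2, at the highest level of the base, stood at 64.0 ± 10.5 and 59.9 ± 3.03 FPKM, and PSMC3, at the lowest, at 8.70 ± 1.25 and 8.10 ± 0.17 (SD, n = 3). PSMC2 was nearly flat at 45.3 ± 0.53 and 46.0 ± 2.48 FPKM. PSMC1 lies on chromosome 7 from 112027904 to 112041360.

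The lid carries PSMD14, the metalloprotease that cuts ubiquitin chains off the substrate, on a scaffold of other PSMD proteins. PSMD12, one of those scaffold proteins, differed most of all proteasome genes when Control 3 was set aside. It read 26.8, 28.3 and 11.85 FPKM in Control, with 16.9, 21.7 and 17.2 in the MT libraries, so that every MT library lay between Control 3 and the other Control libraries. It fell by 0.55 on the log2 scale without Control 3 (SE 0.11, adjusted p 0.037), while over 6 libraries the difference was -0.17 (SE 0.32, 95% interval -0.92 to 0.59). PSMD12 lies on chromosome 12 from 13704112 to 13730072. PSMD14 read 74.3, 77.7 and 49.9 FPKM in Control, with 67.5, 75.4 and 66.3 in the MT libraries, and passed in neither comparison. PSMD7, the partner of PSMD14 in the lid, had the smallest p of the class over 6 libraries. Its values were 49.6, 51.95 and 50.05 FPKM in Control, with 44.6, 47.9 and 44.0 in the MT libraries, which did not overlap, with a log2 difference of -0.15 (SE 0.09, unadjusted p 0.160) that was -0.16 without Control 3 (adjusted p 0.154). PSMD8, at the highest level of the lid, stood at 112.7 ± 24.4 and 105.4 ± 3.02 FPKM, and PSMD13, at the lowest, at 19.1 ± 0.83 and 18.1 ± 0.51 (SD, n = 3). PSMD3 read 64.3, 67.9 and 110.3 FPKM in Control, with 81.6, 68.95 and 74.9 in the MT libraries.

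The immunoproteasome genes had the most negative median of the classes over 6 libraries, -0.20, negative in 4 of 4 tested genes with none past the test. The median was -0.10 without Control 3, no longer the most negative, as the further activators and the assembly factors each had -0.16. In that comparison PSMB8 stood 0.01 higher in MT and PSMB9 0.02 lower. PSMB10, the interferon-inducible partner of PSMB7, read 14.4, 13.7 and 19.2 FPKM in Control, with 12.9, 11.9 and 12.2 in the MT libraries, with all MT values below all Control values. Its log2 difference of -0.31 (SE 0.15, unadjusted p 0.068, 95% interval -0.66 to 0.03) had the smallest p of the 38 genes, and it was -0.17 without Control 3 (adjusted p 0.136). Within each library the ratio of PSMB10 to PSMB7 was 0.1335, 0.1275 and 0.1757 in Control and 0.1166, 0.1122 and 0.1049 in MT, a quantity that a scale factor per library cannot move. The mean log2 ratio was -2.80 ± 0.25 in Control and -3.17 ± 0.08 in MT (SD, n = 3), a difference of -0.37, lower in 3 of 3 MT libraries than in any Control library. Without Control 3 the difference was -0.23. An exact two-sided permutation test over the libraries gave p = 0.1, the smallest that 3 against 3 allows. It was the only one of the 3 exchange pairs that could be formed.

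PSMB8 read 25.0, 22.7 and 30.5 FPKM in Control, with 25.3, 21.6 and 25.3 in the MT libraries. PSMB9 read 24.2, 24.4 and 36.2 in Control and 25.4, 24.1 and 22.5 in MT, and in both genes only Control 3 lay above all MT libraries. These genes lie on chromosome 7, PSMB8 from 25058456 to 25061666 and PSMB9 from 25072133 to 25077508, with the peptide transporter gene TAP1 between them. TAP1 stood at 36.4 ± 4.57 FPKM in Control, with 33.9 ± 1.38 in the MT libraries, and TAP2, on the far side of PSMB8, at 29.5 ± 3.77 and 28.2 ± 1.11 (SD, n = 3). PSME2 read 4.47, 5.30 and 3.70 FPKM in Control, with 3.58, 4.015 and 3.63 in the MT libraries, and had a log2 difference of -0.20 (SE 0.14) over 6 libraries and -0.31 without Control 3 (adjusted p 0.072). Its partner PSME1, 4.0 kb away, rested on 9, 18 and 11 reads in Control and 16, 10 and 21 in MT, and was below the filter, so it was not tested. Of the 13 names of the list of interferon signalling and peptide presentation, 10 were tested, 6 lower and 4 higher in MT, with 0 past the test in either comparison and a median of -0.06. IRF1, a transcription factor that interferon induces, stood at 35.5 ± 6.82 FPKM in Control, with 27.7 ± 1.46 in the MT libraries, without overlap (log2 -0.33, SE 0.15, unadjusted p 0.0637, adjusted p 1.0). Control 3 was its highest library at 43.3 FPKM, and without it the log2 difference was -0.18 (adjusted p 0.128).

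**Figure D3:**
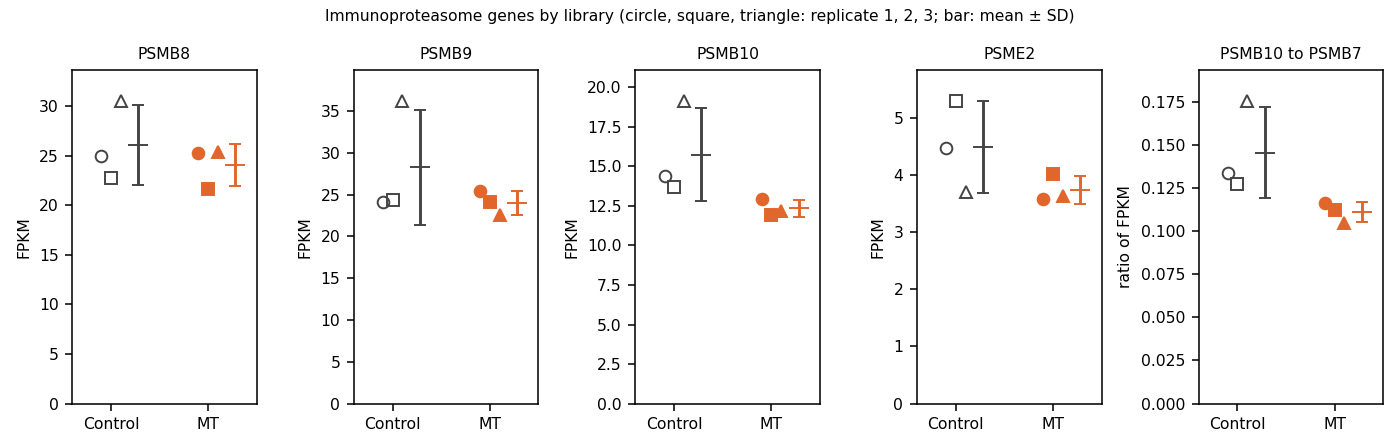
FPKM of the 4 tested immunoproteasome genes and, on the right, the ratio of PSMB10 to PSMB7 in each library (open symbols Control, filled symbols MT, bars mean ± SD of 3 libraries). Only PSMB10 and its ratio keep all 3 MT libraries below all 3 Control libraries.

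The further activators and the assembly factors did not pass over 6 libraries either. The median of the further activators was 0.03 over 6 libraries and -0.16 without Control 3. PSME3, an activator of the nucleus, stood at 28.3 ± 3.79 FPKM in Control, with 28.9 ± 0.74 in the MT libraries. PSME4, an activator known from the mouse testis for its work on acetylated histones, read 9.28, 9.76 and 4.96 FPKM in Control, with 7.46, 8.20 and 7.80 in the MT libraries, with a log2 difference of 0.02 over 6 libraries and -0.25 without Control 3 (adjusted p 0.066). PSMD5, a chaperone of the base, read 20.35, 21.1 and 14.1 FPKM in Control, with 16.8, 17.8 and 16.0 in the MT libraries, below Control 1 and Control 2 in every MT library (log2 -0.11, SE 0.17, over 6 libraries and -0.28 without Control 3, adjusted p 0.052). PSMD10, another base chaperone, stood at 31.1 ± 4.185 and 28.7 ± 1.07 FPKM, and PSMD9, the remaining one, at 14.5 ± 1.45 and 14.8 ± 0.26. PSMG3, a chaperone of the alpha ring, stood at 15.9 ± 2.055 and 13.7 ± 2.02 (SD, n = 3) and had only 93 reads in its lowest library, the fewest of any tested proteasome gene. The assembly class median was -0.11 over 6 libraries and -0.16 without Control 3.

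Control 3 was the highest of the 6 libraries in 18 of the 38 genes and the lowest in 13, against 32.4% and 41.7% of all tested genes, or 81.6% together against 74.1%. Relative to the mean of Control 1 and Control 2 it lay over 0.5 lower on the log2 scale in 7 genes, PSMD12, PSMC6, PSMA4, PSME4, PSMA3, PSMD14 and PSMD5, and over 0.5 higher in 5, PSMD3, PSMA7, PSMD4, PSMB9 and PSMD8. Subunits of the same sub-complex thus stood on opposite sides, PSMC6 with PSMD4 in the base and PSMD12 with PSMD3 in the lid. The median size of this deviation was 0.34 over the proteasome genes and 0.415 over all tested genes. MT libraries were ordered along the same line: MT 2 was the highest MT library in 7 of those 7 genes, against 81.7% of all tested genes as low in Control 3, and the lowest in 4 of those 5, against 84%. The MT mean lay between Control 3 and the mean of Control 1 and 2 in 26 of 38 genes, against 68.9% of all tested genes. Control 3 was the highest library in a larger share of the proteasome genes than of all tested genes, and the lowest in a smaller share, which was not tested. The other shares lay near the background and are no result about the proteasome.

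**Figure D4:**
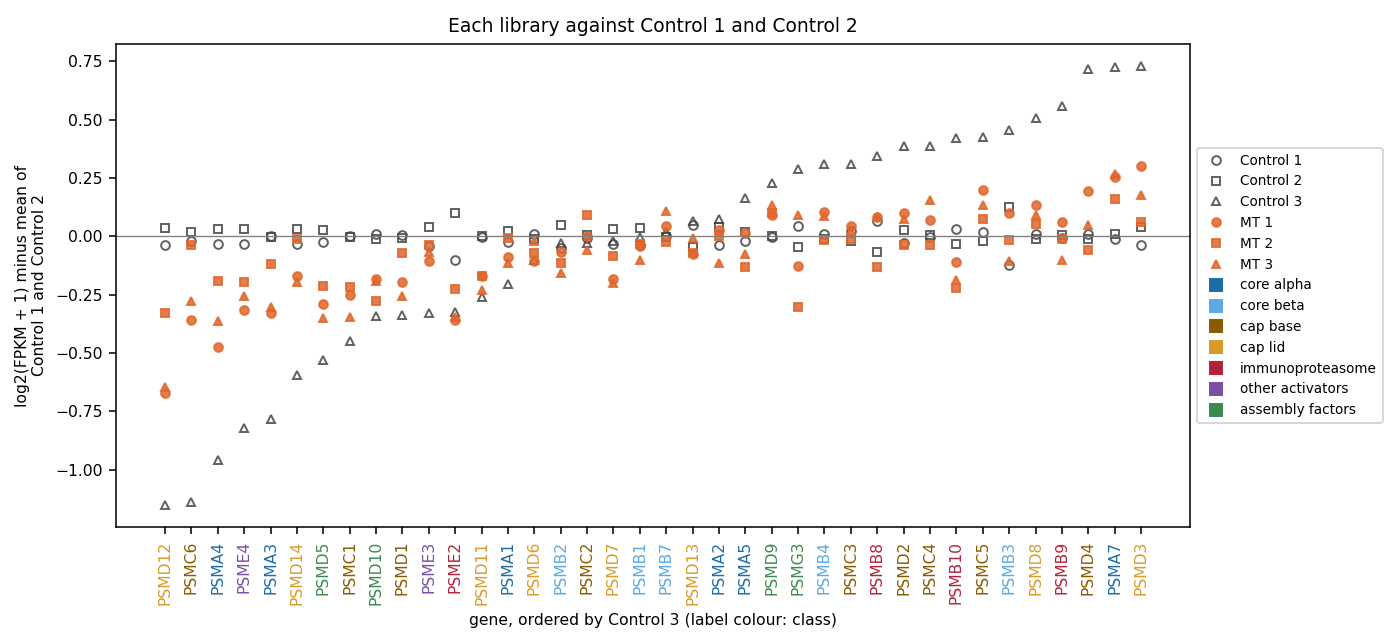
Each library's log2(FPKM + 1) minus the mean of Control 1 and Control 2, for the 38 tested genes ordered by Control 3. Control 3 runs from -1.15 at PSMD12 to 0.73 at PSMD3, and the MT mean lies between Control 3 and zero in 26 of the 38 genes.

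Subunits that occur once per ring differed widely in FPKM. The highest and lowest alpha genes, PSMA7 and PSMA4, were 13.45-fold apart in mean FPKM but 2.08-fold apart in mean reads (4039 and 1942 per library), because FPKM divides by the counted length, which the steps of the values give as 1266 bases for PSMA7 and 8261 for PSMA4. In the beta ring PSMB4 and PSMB2 were 13.96-fold apart in FPKM, with 3788 and 1942 reads and counted lengths of 955 and 6851 bases. For PSMA4, PSMC3, PSMC5 and PSMB10 the counted length exceeded the whole span of the RefSeq gene, with 9301 bases counted over a span of 5708 in PSMC3 and 6072 over 2700 in PSMB10. Over the 38 genes mean FPKM and counted length had a Spearman correlation of -0.66, and over all tested genes of -0.21, a description across genes that share every library and in which length enters both measures. Levels of these genes can therefore be set against each other only with this limit. The counted length itself cancels in the ratio of a gene's FPKM between libraries. On the log2(FPKM + 1) scale it does not cancel fully, and a longer counted length shrinks the difference. Whether reads from outside these 4 genes were counted with them was not tested, and this covers PSMB10 and its ratio to PSMB7.

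Of related genes named outside the symbol rule, NFE2L1, the transcription factor that induces proteasome genes when proteasome activity drops, rose without Control 3 (log2 0.39, adjusted p 0.047). In that comparison 4.28% of all tested genes rose. NFE2L1 read 60.4, 60.8 and 69.4 FPKM in Control, with 81.6, 87.2 and 70.8 in the MT libraries, without overlap, though MT 3 was barely above Control 3 (log2 0.32 over 6 libraries, SE 0.12, adjusted p 0.965). All MT values lay above all Control values in 6.24% of all tested genes. The other 5 tested genes of the NFE2L1 list, among them NFE2L2 and VCP, did not pass. In the list of proteins bound to the proteasome or needed for its assembly, 10 of 11 names were tested, 5 higher and 5 lower, and 1 fell without Control 3, where 6.62% of all tested genes fell. It was TXNL1, a thioredoxin-like protein that binds the cap, at 17.8, 16.4 and 6.63 FPKM in Control, with 11.3, 14.3 and 11.99 in the MT libraries. Its log2 difference was -0.42 without Control 3 (adjusted p 0.0497) and -0.01 over 6 libraries (SE 0.34, adjusted p 1.0), where the groups overlapped. ADRM1, a ubiquitin receptor, stood at 62.0 ± 17.9 FPKM in Control, with 59.0 ± 4.72 in the MT libraries, and PSMF1, a regulator of proteasome activity, at 11.04 ± 2.81 and 11.13 ± 0.66 (SD, n = 3). POMP, a chaperone of the beta rings, was near the filter at 1.23 ± 0.73 and 0.91 ± 0.21 FPKM. Among 10 tested genes of ubiquitin and its shuttles 5 were higher and 5 lower with 0 past the test in either comparison, and UBQLN2 stood at 24.8 ± 0.45 and 28.2 ± 1.32 FPKM without overlap.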

How the data were processed

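Gene expression was measured by RNA sequencing in 3 Control and 3 MT libraries. The authors deposited 1 table of FPKM values for 20731 genes; per the submitters' processing notes they used bcl2fastq, HISAT2 and featureCounts of Subread with Sscrofa11.1, with no version, annotation release, strand setting or filter stated in the labels. From the deposited FPKM, whole reads were recovered for 10950 of 10950 tested genes (100%, tolerance 0.01), giving 19579279 to 21500665 reads per library. Gene symbols came from an identifier table, and gene positions from RefSeq.

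Differences were tested on log2(FPKM + 1) for genes whose mean reached 1 FPKM, with limma 3.58.1 in R 4.3.3 (variance trend, Benjamini-Hochberg adjustment over all 10950 genes, threshold 0.05). Fold changes of low genes are understated on this scale. Tables used Python 3.11.15, and the code was tested on simulated data. The ratio of PSMB10 to PSMB7 was compared by an exact permutation test.

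The genes named with values are the exchange pairs of catalytic subunits, the activators, the assembly factors, PSMD4, PSMD14, the highest, lowest and smallest-p gene of each class, and chosen related genes. PSMA1, PSMA2, PSMA3, PSMB1, PSMC1, PSMC2, PSMC6, PSMD3 and PSMD12 and the genes of the Control 3 comparison were added after their values were seen. The members and lists were chosen with earlier results of these data known. Alternatives were another pseudocount, filters, scalings, sample weights, a replicate block, voom on recovered reads and leaving out each library. The alternative joining voom with leaving out Control 3 was chosen after seeing the data.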

Additional observations from a re-analysis of the deposited data

How the results depend on the processing

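Genes were called only in fits without Control 3 or with sample weights, which lowered Control 3 but also favoured Control 2 and MT 1. The cause was not tested. Without Control 3, 469 genes were called higher in MT and 725 lower, of them 0 and 2 proteasome genes. With quantile normalization and without Control 3, 663 genes were called higher in MT and 670 lower, of them 0 and 2 proteasome genes. With voom on recovered reads and without Control 3, 908 genes were called higher in MT and 1461 lower, of them 1 and 5 proteasome genes. With sample weights, 3081 genes were called higher in MT and 3228 lower, of them 4 and 13 proteasome genes. The median log2 difference of the core beta genes was -0.0058 with voom on recovered reads and without Control 3, and -0.0893 to -0.0057 with 1 library left out. The median log2 difference of PSME3 and PSME4 was 0.0285 in the comparison as reported, -0.2102 with sample weights, and, without Control 3, -0.1628, -0.1516 with quantile normalization and -0.1792 with voom. The median log2 difference of the assembly factors was -0.13 with sample weights, -0.1737 with quantile normalization and without Control 3, -0.1716 with voom on recovered reads and without Control 3, and -0.1646 to -0.0302 with 1 library left out. With upper quartile scaling, the log2 difference changed sign in 2 proteasome genes, to 0.0118 (PSMA1), 0.0068 (PSMC5). With quantile normalization, the log2 difference changed sign in 5 proteasome genes, to 0.0066 (PSMA1), 0.011 (PSMA7), 0.0023 (PSMB4), 0.0145 (PSMC5), -0.0155 (PSME4). With sample weights, the log2 difference changed sign in 17 proteasome genes, to -0.2999 (PSMA3), 0.2367 (PSMA7), 0.0975 (PSMB4), -0.0041 (PSMC2), 0.0456 (PSMC3), 0.0726 (PSMC4), 0.1851 (PSMC5), -0.3179 (PSMC6), 0.0664 (PSMD2), 0.1494 (PSMD4), 0.2324 (PSMD3), 0.1243 (PSMD8), -0.1742 (PSMD14), 0.1014 (PSMB8), 0.0188 (PSMB9), -0.1147 (PSME3), -0.3056 (PSME4). With quantile normalization and without Control 3, the log2 difference changed sign in 16 proteasome genes, to -0.2632 (PSMA3), 0.1812 (PSMA7), 0.0453 (PSMB4), -0.0057 (PSMC2), 0.0479 (PSMC3), 0.0539 (PSMC4), 0.1419 (PSMC5), -0.2408 (PSMC6), 0.0386 (PSMD2), 0.044 (PSMD4), 0.1665 (PSMD3), 0.0463 (PSMD8), -0.1381 (PSMD14), 0.0081 (PSMB8), -0.084 (PSME3), -0.2192 (PSME4). With voom on recovered reads and without Control 3, the log2 difference changed sign in 15 proteasome genes, to -0.2555 (PSMA3), 0.2288 (PSMA7), 0.0603 (PSMB4), 0.0221 (PSMC3), 0.0656 (PSMC4), 0.1427 (PSMC5), -0.2288 (PSMC6), 0.0464 (PSMD2), 0.0633 (PSMD4), 0.1829 (PSMD3), 0.0954 (PSMD8), -0.1266 (PSMD14), 0.0128 (PSMB8), -0.0737 (PSME3), -0.2847 (PSME4). Leaving out 1 library at a time turned the sign in 20 genes, whose log2 differences then spanned -0.069 to 0.0447 (PSMA1), -0.2497 to 0.1436 (PSMA3), -0.3421 to 0.1515 (PSMA4), -0.1417 to 0.2271 (PSMA7), -0.1016 to 0.0598 (PSMB4), -0.0188 to 0.0564 (PSMC2), -0.1463 to 0.0195 (PSMC3), -0.1339 to 0.0631 (PSMC4), -0.0869 to 0.1357 (PSMC5), -0.2234 to 0.3541 (PSMC6), -0.1608 to 0.0455 (PSMD2), -0.3034 to 0.0612 (PSMD4), -0.2045 to 0.1802 (PSMD3), -0.1664 to 0.0944 (PSMD8), -0.549 to 0.0455 (PSMD12), -0.1245 to 0.1894 (PSMD14), -0.1941 to 0.0115 (PSMB8), -0.0711 to 0.1124 (PSME3), -0.2546 to 0.172 (PSME4), -0.0065 to 0.1092 (PSMD9). Same-numbered libraries deviated together in numbers 2 and 3 but not in number 1 (correlations 0.63, 0.34 and -0.44). Libraries of different numbers reached 0.5 (Control 1 with MT 2) and -0.63 (Control 3 with MT 2). These values cannot tell whether same-numbered libraries share a culture or animal, and the labels state no pairing. With the replicate block 0 genes were called. In this balanced design a block cannot move a log2 difference, so the unchanged directions of the 38 proteasome genes carry no information. Another pseudocount, no filter, a stricter filter, no variance trend and voom with all 6 libraries changed no direction and no call among the proteasome genes tested. The filters and the variance trend cannot move a log2 difference, so for them only the calls could have changed. The log2 ratio of PSMB10 to PSMB7 differed by -0.4626 to -0.2311 with 1 library left out, with a smallest possible p of 0.2. PSME1 and PSMA8 were below the filter with few or no reads in each library, and the reason was not tested.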
